A study of Mus musculus with 2 samples.

Results

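The genes described here are the replication-dependent histone genes, read in single cells of B16F10 melanoma tumours. They were chosen by symbol: every feature starting with Hist1h, Hist2h, Hist3h or Hist4h and holding at least 10 UMIs (unique molecular identifiers, which count captured mRNA molecules) over the matrix. This gave 53 genes of 67 histone features and of 31053 features in all. The other 14 features held 0.0574% of histone UMIs together, and 3 of them had none. Viable cells sorted for CD45, the surface marker of white blood cells, were taken 2 weeks after B16F10 cells, a transplantable mouse melanoma line, had been injected. The hosts carried LysM-cre, which drives recombination in myeloid cells, with either Rel+/+ or RelloxP/loxP, and 1 sample was sequenced for each genotype, from 5 pooled tumours. The 2 libraries are told apart by a number in the barcode, which the sources used here do not tie to a genotype, so no comparison of genotypes was made and the libraries are called library 1 and library 2. With 1 library a genotype there is no replicate and no test. All intervals are 95% intervals for counting error only.

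Histones are the proteins around which DNA is wound. H2A, H2B, H3 and H4 form the nucleosome core and H1 binds the DNA between nucleosomes. The genes in question are transcribed mainly while DNA is replicated, and most of their mRNAs end in a stem-loop, bound by the protein Slbp, in place of a poly(A) tail. The droplet 3′ assay primes on poly(A), so it reads mainly those histone transcripts that carry such a tail, and the levels below are levels of captured mRNA.

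The stem-loop was searched for in the annotated transcripts (GENCODE, on GRCm38) and is printed because it sets this family apart and divides it by histone type. Capitals mark the 2 arms, which pair with each other, and lower case marks the loop. It was found in 66.7% of protein-coding transcripts of the 67 features and in 1.32% of other protein-coding transcripts, and in 39 of the 53 genes, in these main forms.
H1, H2A, H2B and H3, 22 genes: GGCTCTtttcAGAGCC
H1, H2B and H3, 6 genes: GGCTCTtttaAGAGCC
H4 (Hist1h4d and 4 others), 5 genes: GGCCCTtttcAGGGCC
H4 (Hist2h4 and Hist1h4i), 2 genes: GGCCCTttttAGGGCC
H4 (Hist1h4b), 1 gene: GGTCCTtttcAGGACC
Each of the other 3 forms was held by 1 gene. All 9 H4 genes with a match had arms that no other histone type had. In 22 genes the annotated transcript ran more than 100 bases past the stem-loop, and these genes held 67.8% of the UMIs. The 17 genes whose annotated transcript ended within 100 bases of it held 18.6%, and the 14 with no match in the annotated transcript held 13.7%. Some of these 14 transcripts may be cut short. Hist1h2bc, which held 6105 of the 10946 UMIs of these 14 genes, has an annotated transcript of 1156 bases in 2 exons. The median gene of the 3 groups had 488, 462 and 157 UMIs, and each group spanned a wide range (61 to 13089, 10 to 5832 and 11 to 6105 UMIs). AATAAA, the usual signal for a poly(A) tail, stood in the last 50 bases of 9 of the 22 longer transcripts, 0 of the 17 shorter ones and 2 of the 14 others.

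Sequence before the start of 3 linker histone genes is shown next, because Hist1h1b was near 0 in melanoma and Hist1h1e and Hist1h1c were not. All 3 hold a CCAAT box and the AC box of H1 genes, and Hist1h1e and Hist1h1b also hold the exact letters TATAAA of a TATA element. Hist1h1c holds a run of alternating T and A after its CCAAT box, which those letters do not match. The stretch between Hist1h2ae and Hist1h2bg is shown as an example of an H2A and an H2B gene read away from each other from 1 stretch of DNA. Capitals mark the CCAAT box by those letters, the TATA element as TATAAA, the octamer as ATTTGCAT and the AC box as AAACACA, on either strand, and a motif on the other strand appears as its reverse complement. Each is from RefSeq (GRCm38.p6), 5′ to 3′ on the gene's strand.
Hist1h1e, chr13:23622559-23622808, minus strand: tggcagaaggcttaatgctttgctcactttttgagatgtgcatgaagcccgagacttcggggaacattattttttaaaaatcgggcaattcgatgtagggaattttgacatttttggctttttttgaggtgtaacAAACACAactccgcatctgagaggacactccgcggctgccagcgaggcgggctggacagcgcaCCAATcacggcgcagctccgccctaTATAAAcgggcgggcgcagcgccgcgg
Hist1h1c, chr13:23738557-23738806, plus strand: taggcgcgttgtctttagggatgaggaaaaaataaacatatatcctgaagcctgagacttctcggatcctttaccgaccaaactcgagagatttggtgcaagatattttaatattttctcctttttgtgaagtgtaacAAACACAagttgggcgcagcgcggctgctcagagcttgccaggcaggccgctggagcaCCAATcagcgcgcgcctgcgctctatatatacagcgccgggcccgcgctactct
Hist1h1b, chr13:21780626-21780875, minus strand: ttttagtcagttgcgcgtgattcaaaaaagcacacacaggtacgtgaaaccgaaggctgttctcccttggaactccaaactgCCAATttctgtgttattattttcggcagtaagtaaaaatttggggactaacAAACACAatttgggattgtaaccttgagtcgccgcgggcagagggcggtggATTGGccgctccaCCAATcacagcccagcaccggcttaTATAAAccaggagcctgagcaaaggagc
Hist1h2ae to Hist1h2bg, chr13:23571221-23571395, minus strand: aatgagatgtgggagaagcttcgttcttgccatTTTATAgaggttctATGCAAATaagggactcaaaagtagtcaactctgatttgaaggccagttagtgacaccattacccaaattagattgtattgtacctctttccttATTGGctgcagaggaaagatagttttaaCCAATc
Promoters of 300 bases (250 before the start and 50 after) were matched for 46 of the 53 genes. CCAAT stood in 89.1% of them and in 37.4% of all 32851 promoters. By type it was in all 38 matched promoters of H1, H2A, H2B and H3 genes and in 3 of 8 of H4 genes. TATAAA stood in 52.2% against 13.6% of all promoters, the octamer in 21.74% against 1.74%, and AAACACA in 4 of 5 H1 promoters against 7.18% of all. The octamer was held by 5 of 11 H2A and 5 of 13 H2B promoters and by none of the H1, H3 and H4 promoters. A match describes letters in this window and is no evidence of binding. Including Hist1h2ae and Hist1h2bg, 6 pairs of genes were annotated with starts less than 500 bases apart on opposite strands, each an H2A beside an H2B gene, at 176 to 296 bases.

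Barcodes were put into classes by UMIs of marker genes alone. Melanoma barcodes (Pmel, Mlana, Dct, Tyrp1 and other pigment cell genes) numbered 2085 in library 1 and 4977 in library 2, of 5198 and 7999 barcodes kept, although the sort was for CD45. A list of general white blood cell genes stood at 29.2 and 35.5 CPM (counts per 1e6 UMIs) in them, against 4033 to 8267 CPM in the CD8 T, NK and myeloid classes of either library, a gap that the class rules fix, since they used this list. Melanoma barcodes were cycling when Top2a, Mki67, Cdk1, Prc1, Cenpf and Aurkb, genes of cell division, made up at least 0.05% of their UMIs. This held for 907 (43.5%) and 2002 (40.2%) barcodes. CD8 T barcodes numbered 307 and 209, of which 26.4% and 32.1% were cycling, NK barcodes 220 and 59 (10.0% and 6.78%), and myeloid barcodes 1140 and 1298 (10.9% and 15.3%). Median depth was 21653 and 13518 UMIs in cycling melanoma, 15939 and 10998 in other melanoma, and 678 to 2140 in the immune classes. At such depths 1 UMI of the 6 genes can make an immune barcode cycling, so the counts of members in cycling melanoma and cycling myeloid barcodes were also computed with at least 3 UMIs required. Cycling CD8 T barcodes were then too few for a value. T cell markers stood at 1103 and 777 CPM in NK barcodes, against 5832 and 5542 CPM in CD8 T barcodes. The NK class of library 2 held 14 histone UMIs in all. Melanoma markers in the immune classes stood at 2.31% to 6.86% of their level in melanoma barcodes, the measure of free melanoma RNA used below. The libraries shared 3609 barcode sequences, and the 1991 and 1602 barcodes that had a copy with more than 10 times as many UMIs in the other library were left out.

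Histone mRNA made up more of the UMIs in cycling than in other barcodes of the melanoma, CD8 T and myeloid classes, and among these its share was highest in cycling CD8 T barcodes. In cycling melanoma the 53 genes together stood at 893 CPM in library 1 (17287 UMIs, 95% interval 880.0 to 907) and 1118 CPM in library 2 (31031 UMIs, 1106 to 1130.5). Other melanoma barcodes stood at 264 and 323 CPM, so that the ratio was 3.38 (3.27 to 3.49) and 3.46 (3.39 to 3.54). The same ratio was 6.39 and 3.33 in CD8 T barcodes, where cycling barcodes held 2010.1 and 2252 CPM and other barcodes 315 and 675 CPM. In myeloid barcodes it was 5.43 and 4.18, with 1479 and 1601 CPM against 272 and 383 CPM. The intervals of cycling and other barcodes did not overlap in any of the 3 lineages. Against cycling CD8 T barcodes, cycling melanoma held 0.444 (0.412 to 0.480) and 0.496 (0.449 to 0.551) of the histone share, and against cycling myeloid barcodes 0.604 and 0.698. These gaps rest largely on a block of 9 members around Hist1h1b, described below. The block stood at 842 and 810 CPM in cycling CD8 T and 601 and 415 CPM in cycling myeloid barcodes. In cycling melanoma it stood at 2.33 and 1.26 CPM. CD8 T barcodes as a whole held 1109.6 and 1365 CPM, myeloid barcodes 499 and 661 CPM and NK barcodes 457 and 294 CPM. Averaging over barcodes in place of summing UMIs gave 712 CPM for CD8 T barcodes of library 1. Within CD8 T and myeloid classes the cycling barcodes were deeper (median 3231 and 1954 UMIs against 1422 and 1166 in CD8 T, 4280 and 2240 against 2082 and 1249 in myeloid), and the part of depth in these ratios was not tested.

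**Figure D1:**
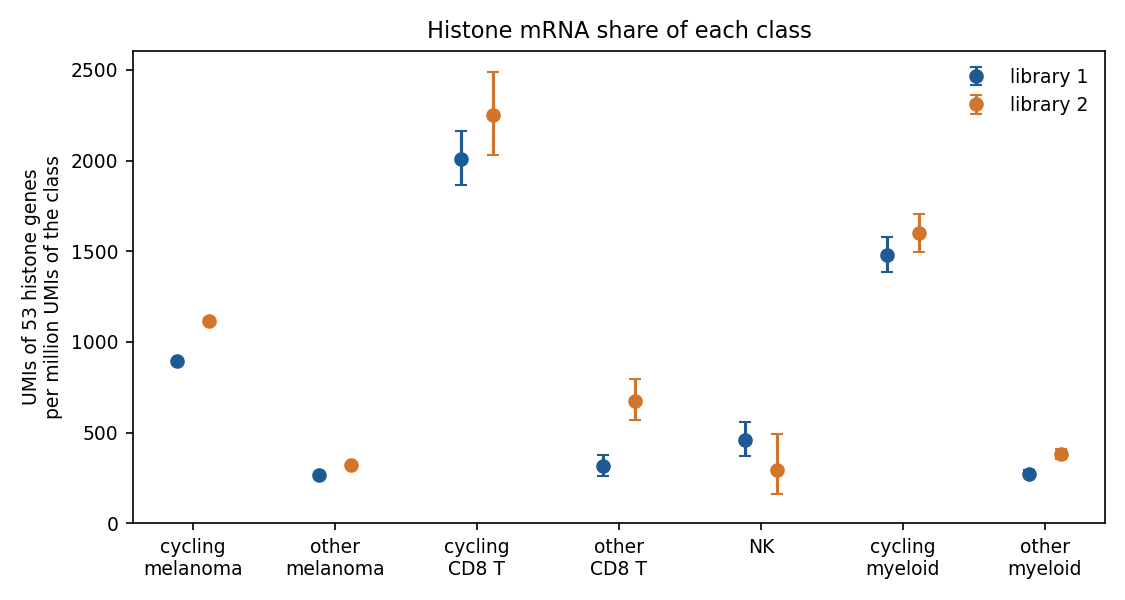
CPM of the 53 histone genes in a class (y axis) in 7 classes (x axis), with each library as a point and its exact 95% Poisson interval as the bar. Cycling melanoma, CD8 T and myeloid barcodes lie above other barcodes of their lineage in both libraries, and cycling CD8 T barcodes are highest at 2010.1 and 2252.

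Histone mRNA was spread unevenly over barcodes of 1 class. The median cycling melanoma barcode gave 0.0711% and 0.0890% of its UMIs to the 53 genes, and the lower quartile was 0.0289% and 0.0351% and the upper quartile 0.128% and 0.168%. The 91 and 201 barcodes with the highest share held 22.8% and 23.4% of the class's histone UMIs. Other melanoma barcodes had medians of 0.0217% and 0.0261%. Of cycling melanoma barcodes 3.31% and 3.30% had no histone UMI, against 9.25% and 11.1% of other melanoma barcodes, which were shallower.

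Summed over all members, each of the 5 families was higher in cycling than in other melanoma. H1 genes, the linker histones, stood at 289 and 287 CPM in cycling melanoma against 77.7 and 93.4 in other melanoma, a ratio of 3.71 and 3.07. H2A was 4.49 and 5.16 times higher, H3 6.84 and 6.40 times and H4 3.77 and 3.86 times. H2B had the lowest ratio of the 5 families in both libraries, at 1.37 (1.28 to 1.47) and 1.70 (1.62 to 1.79), with 103 and 147 CPM in cycling against 74.8 and 86.5 CPM in other melanoma. A single gene, Hist1h2bc, held 1073 of the 1383 H2B UMIs in other melanoma of library 1 and 2153 of 2865 in library 2. Without Hist1h2bc the H2B ratio was 4.19 (3.70 to 4.76) and 4.84 (4.46 to 5.26), so the low H2B ratio rests on this gene. Without their own members of most UMIs, a step added after the data were seen, the ratios were 2.17 and 1.87 for H1 (without Hist1h1e), 2.86 and 3.72 for H2A (without Hist1h2ae), 4.44 and 4.64 for H3 (without Hist1h3c) and 1.88 and 1.98 for H4 (without Hist1h4d). H4 and H1 then had the lowest ratios in place of H2B. With all members, H2B made up 28.3% and 26.8% of histone UMIs in other melanoma and 11.5% and 13.2% in cycling melanoma. H3 went from 4.62% and 5.35% to 9.37% and 9.89%. In cycling CD8 T barcodes H1 genes held 45.4% and 42.0% of histone UMIs, and in cycling myeloid barcodes 47.4% and 43.0%, against 32.3% and 25.6% in cycling melanoma. This difference rests largely on 1 gene, Hist1h1b. Hist1h1b held 166 of 325 and 78 of 160 H1 UMIs in cycling CD8 T barcodes. It held 233 of 424 and 146 of 391 in cycling myeloid barcodes, and 12 of 5587 and 10 of 7955 in cycling melanoma.

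Of the 53 genes, 32 had at least 50 UMIs over cycling and other melanoma in each library. Of these, 24 were at least 2 times higher in cycling melanoma in both libraries, the rule used here to call a gene, and none was at most 0.5 times. Over all 10867 genes measured, 2.47% were higher and 0.258% lower by the same rule. Some members reached the 50 UMIs through cycling melanoma alone. In library 1 Hist1h2bj had 184 UMIs in cycling and 22 in other melanoma, and Hist1h2af had still fewer in other melanoma. For such genes being measured and being called higher are linked. The median log2 ratio of the 32 genes was 1.72 and 2.05, against -0.000367 and 0.00504 over all genes. In all, 27 were above 1 in both libraries, 3 (Hist3h2a, Hist1h2bc and Hist1h3d) below 1 in both, and Hist2h2be and Hist1h2ac lay on different sides.

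Among linker histones, Hist1h1e (H1.4; chr13:23620629-23622558, minus strand) had the most UMIs of any member. Hist1h1e stood at 190.9 CPM in library 1 and 183.7 in library 2 in cycling melanoma, and at 32.6 and 38.3 in other melanoma. Its ratio was 5.85 (5.37 to 6.39) and 4.79 (4.51 to 5.10). Hist1h1e and Hist1h2be overlap on the same strand, with 99.0% of Hist1h1e windows of 90 bases also in another transcript, so their counts may be split by the counting. Windows, here and below, were taken from at most the last 500 bases of a gene's longest annotated coding transcript. Hist1h1d (H1.3) stood at 33.7 and 38.2 CPM against 5.90 and 7.18, a ratio of 5.71 and 5.32. Hist1h1c (H1.2) is known to give tailed transcripts outside S phase, the time of DNA replication. Hist1h1c stood at 59.2 and 61.2 CPM in cycling and 38.4 and 46.8 in other melanoma, a ratio of 1.54 and 1.31 (lower bounds of the intervals 1.41 and 1.22), and was not called. Hist1h1t, the testis H1, was low at 3.98 and 2.99 CPM in cycling melanoma against 0.649 and 0.573, and was called at 6.13 and 5.21. No UMI of Hist1h1t was counted in CD8 T, NK or myeloid barcodes of either library.

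Among H2A genes, Hist1h2ae (chr13:23570517-23571220, minus strand) stood at 134.1 and 183.0 CPM in cycling and 13.5 and 22.7 CPM in other melanoma. Its ratio was 9.92 and 8.05. Hist2h2ac, on chromosome 3, stood at 76.3 and 104.3 against 11.2 and 15.6 CPM, 6.82 and 6.67 times higher. Hist1h2ab stood at 16.4 and 18.8 against 1.35 and 1.81 CPM, a ratio of 12.2 and 10.4. The highest ratios of all members belonged to Hist1h2af, 33.9 and 15.8, which rest on 2 and 10 UMIs in other melanoma, and 66.4% of Hist1h2af windows occur in other H2A transcripts. Hist3h2a, on chromosome 11, went the other way with 8.37 and 11.1 CPM in cycling against 14.9 and 12.7 CPM in other melanoma, a ratio of 0.561 and 0.871. Hist1h2ac stood at 11.7 and 9.19 against 14.1 and 8.66 CPM.

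Among H2B genes, Hist1h2bc (chr13:23684199-23692908, plus strand), which has no stem-loop match in its annotated transcript, had the most UMIs of the family. Hist1h2bc stood at 32.5 and 43.2 CPM in cycling and 58.0 and 65.0 CPM in other melanoma, a ratio of 0.560 and 0.665, so that it was lower in cycling barcodes of both libraries without reaching the rule. Of the 8 measured H2B genes 6 were called higher. Hist2h2bb stood at 26.5 and 42.6 against 3.41 and 5.65 CPM, a ratio of 7.76 and 7.55. Hist1h2bj had 9.51 and 16.3 against 1.19 and 2.96 CPM, a ratio of 7.99 and 5.52. Hist2h2be, known for tailed transcripts in cells that have left the cycle, stood at 2.01 and 3.71 against 2.06 and 2.54 CPM. Of Hist2h2bb windows 47.3% also occur in an overlapping gene model, Gm42743, so its counts may be split.

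Among H3 genes, Hist1h3c stood at 41.1 and 53.5 CPM in cycling and 2.65 and 4.98 CPM in other melanoma, a ratio of 15.5 and 10.8. Hist1h3e had 26.8 and 35.4 against 3.68 and 5.40 CPM, 7.28 and 6.55 times higher, and shares 56.7% of its windows with Hist1h3f. Hist1h3d was low throughout melanoma, at 1.09 and 0.649 CPM in cycling against 1.95 and 1.45 CPM. It was higher in cycling myeloid barcodes, at 11.6 and 19.4 CPM, but on few UMIs, since 3 counts stand at 4.96 and 5.28 CPM there. Among H4 genes, Hist1h4d stood at 109.4 and 160.1 CPM in cycling and 16.9 and 26.4 CPM in other melanoma, a ratio of 6.48 and 6.07. Hist1h4i was flatter, with 25.4 and 29.0 against 14.98 and 19.6 CPM, a ratio of 1.70 and 1.48, and Hist4h4 stood at 4.34 and 4.25 against 3.03 and 2.69 CPM. The 12 called members whose ratios have not been given had ratios from 2.21 (Hist2h4, library 2) to 8.77 (Hist1h3f, library 1). The 21 members not measured had too few UMIs in melanoma for the rule. With cycling set at 0.1% of UMIs, which moves part of the cycling barcodes into the other class, 7 of the named genes lost more than 0.5 of their mean log2 ratio over the libraries. Hist1h3c went from 3.69 to 2.72 and Hist1h2ae from 3.16 to 2.26.

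**Figure D2:**
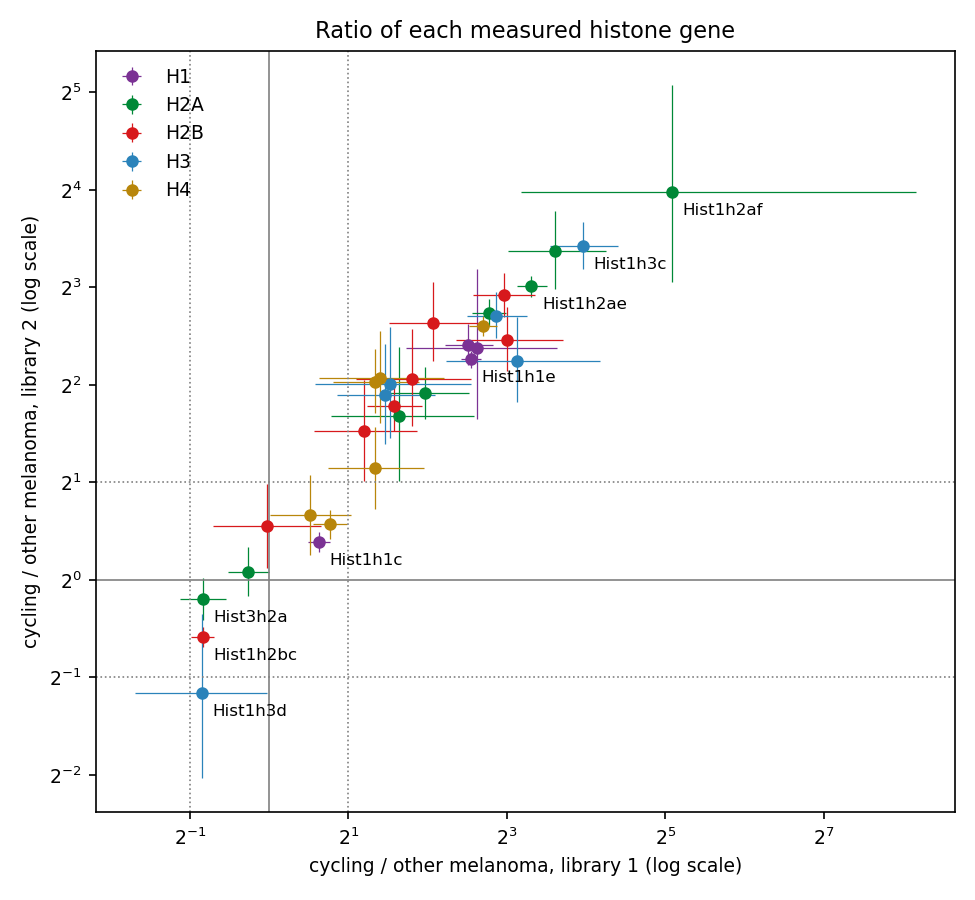
Ratio of the level in cycling to that in other melanoma barcodes for the 32 measured histone genes, in library 1 (x axis) and library 2 (y axis), both on log scales, coloured by family, with exact 95% intervals for counting error. Dotted lines mark ratios of 0.5 and 2. Hist1h2af, Hist1h3c and Hist1h2ae lie at the upper right, and Hist1h2bc, Hist3h2a and Hist1h3d lie below 1 on both axes.

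Cycling CD8 T and myeloid barcodes were then set against other barcodes of their own lineage. In CD8 T barcodes 5 members were measured and 4 were called higher (Hist1h1b, Hist1h1e, Hist1h2ae and Hist1h2ap) and 0 lower, where 1.98% of 1011 genes were higher and 0.495% lower. Their median log2 ratio was 4.39 and 2.76, against 0.0704 and 0.00577 over all genes. In library 2 Hist1h1b and Hist1h2ap reached the 50 UMIs needed in cycling CD8 T barcodes alone, with 78 and 50. For these genes being measured and being called higher are therefore linked. In myeloid barcodes 9 were measured, 7 were called higher and 0 lower, where 2.07% of 5179 genes were higher and 1.31% lower, with a median of 3.47 and 2.39 against 0.0712 and 0.0517. The 7 were the 4 genes called in CD8 T barcodes with Hist1h4d, Hist1h4i and Hist2h2ac. Here too Hist1h1b and Hist1h2ap were measured through cycling barcodes alone, with 146 and 60 UMIs in library 2. Hist1h1c and Hist1h2bc, measured but not called in myeloid barcodes, had ratios of 0.980 and 1.47, and of 0.505 and 1.29. With at least 3 UMIs of the cycling genes required, 7 of 9 myeloid members were called, and the smallest CD8 T class held 35 barcodes, too few to be used.

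Across lineages, the members that stood out were 2 genes almost missing from melanoma. Hist1h1b (H1.5; chr13:21779883-21780625, minus strand) had 12 and 10 UMIs in cycling melanoma, 0.620 and 0.3603 CPM. In cycling CD8 T barcodes Hist1h1b stood at 466 and 461 CPM, in cycling myeloid barcodes at 385 and 257 CPM, and in NK barcodes at 14.9 CPM from 3 UMIs in library 1 and 0 UMIs in library 2. Other CD8 T and other myeloid barcodes had 11.1 to 27.6 CPM. The ratio of Hist1h1b between cycling CD8 T and cycling melanoma was thus 751.5 and 1280 in favour of CD8 T. The H2A gene Hist1h2ap (chr13:21833026-21833507, minus strand) stood at 1.19 and 0.504 CPM in cycling melanoma, at 281 and 296 CPM in cycling CD8 T and at 155 and 106 CPM in cycling myeloid barcodes. Of Hist1h2ap windows 92.4% occur in other H2A transcripts, so its counts are uncertain as to the gene. Hist1h1a, a further linker histone, which lies in another block of histone genes, had 0.310 and 0.144 CPM in cycling melanoma against 28.1 and 23.6 in cycling CD8 T and 28.1 and 15.8 in cycling myeloid barcodes.

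**Figure D3:**
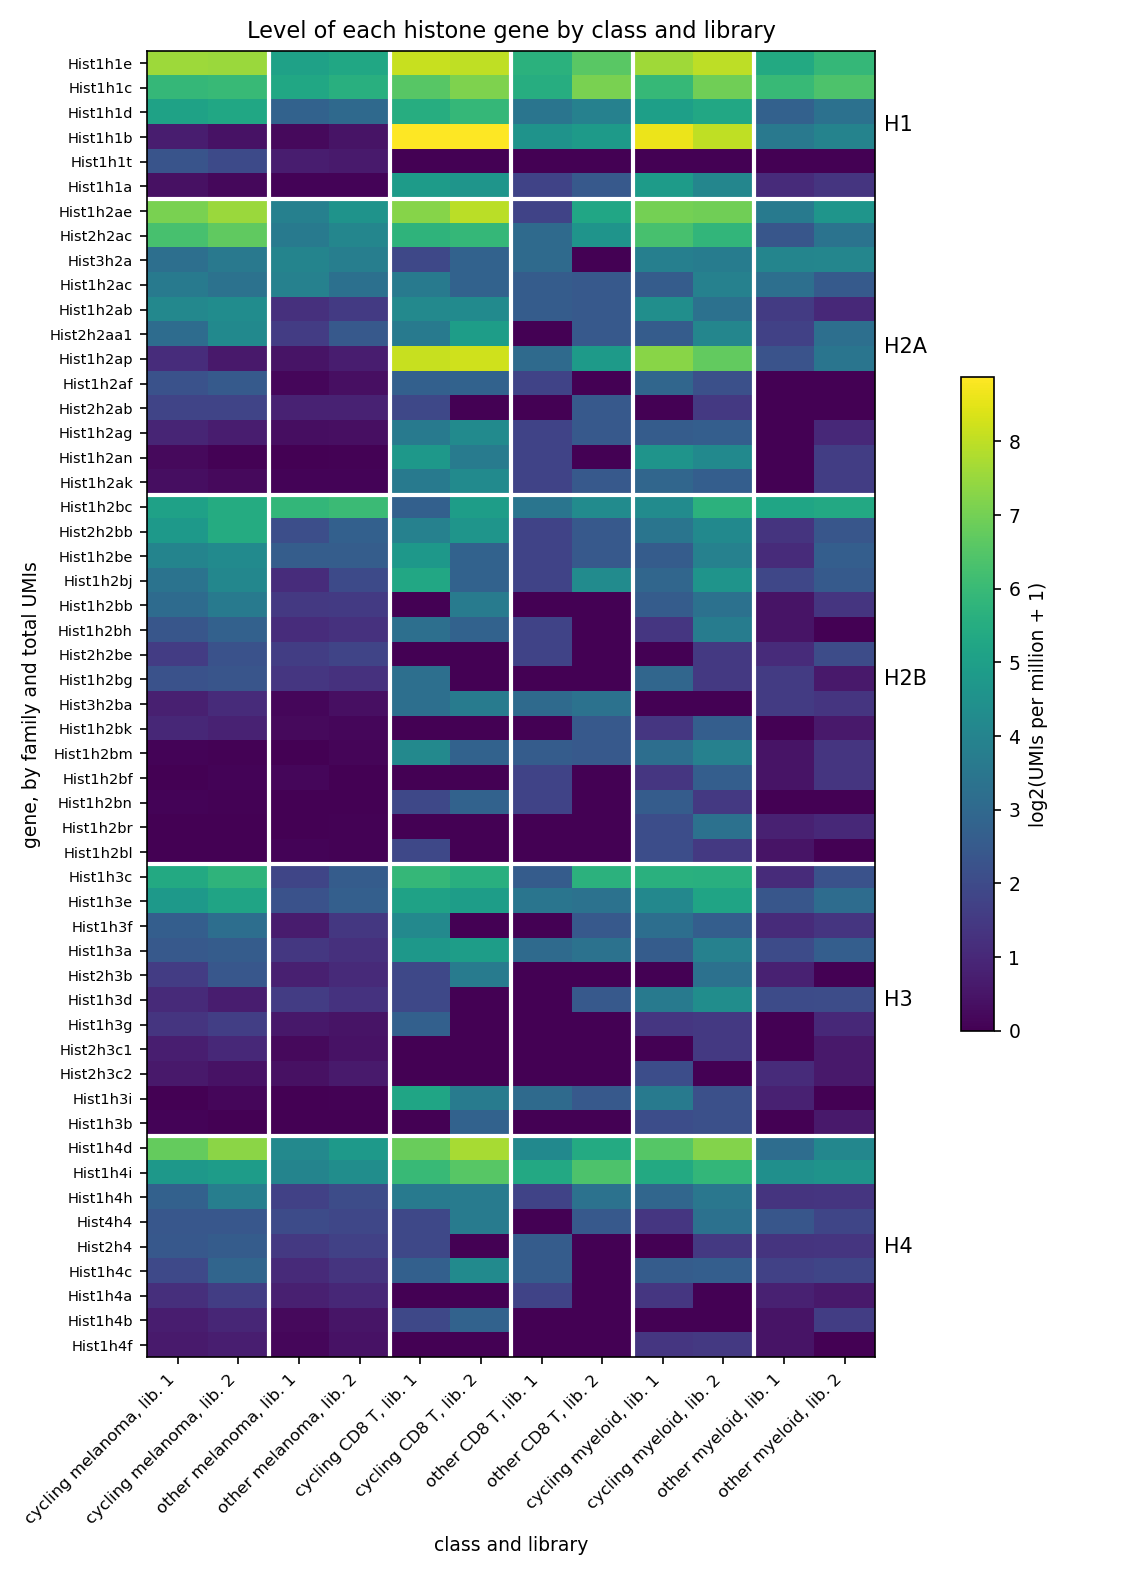
Level of each of the 53 genes (rows, by family and then by total UMIs) as log2(CPM + 1) in 6 classes of each library (columns). Hist1h1b and Hist1h2ap are dark in the 4 melanoma columns and bright in the cycling CD8 T and cycling myeloid columns, while Hist1h1e, Hist1h2ae and Hist1h4d are bright in all cycling columns.

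Counted by the rule, 31 members were measured in cycling melanoma against cycling CD8 T barcodes. None was higher and 4 were lower (Hist1h1b, Hist1h2ap, Hist1h3a and Hist1h4i), where 11.4% of all genes measured were higher and 6.54% lower. The members' median log2 ratio was -0.525 and -0.44, against 0.188 and -0.000386 over all genes. For members and all genes alike, a count of 0 was set to 3 counts, which stand at 8.42 and 17.7 CPM in cycling CD8 T barcodes. Members with no UMI there and a lower level in cycling melanoma thus had ratios fixed below 1. They could not be called higher, and the median depends in part on this floor. Against cycling myeloid barcodes 30 were measured, with 1 higher (Hist2h2bb, on 6 and 10 myeloid UMIs) and 2 lower (Hist1h1b and Hist1h2ap), where 15.6% were higher and 11.2% lower. With 3 UMIs of the cycling genes required none was higher against cycling myeloid barcodes. These 2 comparisons were added after the others had been seen. Hist1h3a stood at 4.60 and 4.94 CPM in cycling melanoma and at 25.3 and 29.5 CPM in cycling CD8 T barcodes, on 9 and 5 UMIs there.

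Cycling melanoma was also compared with each immune class as a whole, in which most barcodes were not cycling. Against CD8 T barcodes 31 were measured, 2 higher (Hist2h2ac and Hist2h2bb) and 3 lower (Hist1h1b, Hist1h2ap and Hist1h3a), where 18.5% of all genes were higher and 7.99% lower. The members' median log2 ratio was 0.273 and 0.315, against 0.398 and 0.327 over all genes. The floor for counts of 0 applied here too, at 3.95 and 7.76 CPM in CD8 T barcodes. With levels averaged over barcodes, 6 were higher. Against NK barcodes 29 were measured, 4 higher (Hist1h2ae, Hist1h2bc, Hist1h4d and Hist2h2ac) and 0 lower, where 8.31% were higher and 8.34% lower; each of the 4 rests on at most 1 UMI in library 2. Against myeloid barcodes 30 were measured, 16 higher and 2 lower (Hist1h1b and Hist1h2ap), where 28.2% were higher and 14.5% lower. Hist2h2bb had ratios of 8.52 and 5.89 there, Hist2h2ac 4.24 and 5.19 and Hist1h2ae 4.03 and 3.96. With cycling set at 0.02% of UMIs 10 were higher than in myeloid barcodes.

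Hist1h1b and Hist1h2ap belong to 1 block of histone genes, and the whole block was low in melanoma. Histone features were grouped where no gap exceeded 100 kb, a step added after the data were seen. The Hist1h1b group spans chr13:21715763-21837530 and holds 18 features, 9 of them members (Hist1h2bl, Hist1h2bm, Hist1h2ak, Hist1h2bn, Hist1h1b, Hist1h3i, Hist1h2an, Hist1h2ap and Hist1h2br). Its 9 members together stood at 2.33 (45 UMIs) and 1.26 CPM (35 UMIs) in cycling melanoma and 0.649 and 1.30 CPM in other melanoma. In cycling CD8 T barcodes they stood at 842 and 810 CPM and in cycling myeloid barcodes at 601 and 415 CPM, 362 and 642 times and 259 and 329 times the cycling melanoma level. Leaving out the 6% of barcodes with the highest doublet scores raised the library 1 ratios to 636 and 484. The group gave 41.9% and 36.0% of histone UMIs in cycling CD8 T and 40.7% and 25.9% in cycling myeloid barcodes, and 0.260% and 0.113% in cycling melanoma. In cycling CD8 T barcodes Hist1h1b and Hist1h2ap held 166 and 100 of its 300 UMIs in library 1. In library 2 they held 78 and 50 of 137. In cycling myeloid barcodes they held 233 and 94 of 364, and 146 and 60 of 236. No other member had more than 14 UMIs in either class, so the block's ratios rest mainly on these 2 genes.

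Summed over their members, the other blocks differed less between classes. The Hist1h4i group (chr13:22035164-22043676, 4 members) stood at 36.8 and 46.8 CPM in cycling melanoma and 112 and 118 CPM in cycling CD8 T barcodes, a ratio of 3.05 and 2.53. The Hist1h1e group (chr13:23531050-23764406, 28 members) stood at 718 and 872 CPM against 955 and 1170.3 CPM, a ratio of 1.33 and 1.34. Members of these groups differed from their sums. Hist1h1a, in the Hist1h1e group, was 90.55 and 164.0 times lower in cycling melanoma than in cycling CD8 T barcodes, on 6 and 4 UMIs in cycling melanoma and 10 and 4 in cycling CD8 T. Hist1h2ag, in the Hist1h4i group, was 12.78 and 27.34 times lower, on 17 and 18 against 4 and 3 UMIs. The Hist2h group (chr3:96219865-96270132, 9 members) stood at 123 and 181 CPM in cycling melanoma, against 87.0 and 124 CPM in cycling CD8 T and 95.8 and 106 CPM in cycling myeloid barcodes. Within melanoma, cycling over other barcodes was 3.47 and 3.50 in the Hist1h1e group, 5.47 and 5.42 in the Hist2h group and 2.22 and 2.04 in the Hist1h4i group. The Hist3h genes on chromosome 11, 2 members, stood at 9.10 and 12.2 CPM in cycling against 15.04 and 13.01 CPM in other melanoma. In the Hist1h1b group the ratio of cycling to other melanoma was 3.58 (1.86 to 7.44) and 0.971 (0.604 to 1.55), on 12 and 43 UMIs in other melanoma.

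Of the genes counted in the matrix, Gm11274 was the 1 inside the Hist1h1b group that is no histone, and had no UMI. Other annotated gene models there, such as Gm44466, are not among the features counted. The nearest counted genes outside the group were olfactory receptor genes. Olfr1359, Olfr1360 and Olfr1361, 8.93 to 52.38 kb from it on the side of lower coordinates, had no UMI either, and Olfr11, at 73.25 kb, stood at 0.310 and 0.5765 CPM in cycling melanoma. Genes with higher levels lay farther off. The zinc finger gene Zfp184, 107.6 kb away on the other side, stood at 3.26 and 2.52 CPM in cycling melanoma. On the side of lower coordinates Zscan26, 262.0 kb away, stood at 5.94 and 5.22 CPM. Zkscan3, 313.0 kb away, stood at 17.6 and 18.1 CPM in cycling melanoma, 24.5 and 19.7 CPM in other melanoma and 30.9 and 29.5 CPM in cycling CD8 T barcodes. The single members of the block were at 0 to 1.19 CPM in cycling melanoma of either library. T cell markers stood at 8.99 and 5.66 CPM and myeloid markers at 54.3 and 67.5 CPM in cycling melanoma barcodes. The part of RNA from T and myeloid cells in the block's UMIs there was not tested.

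**Figure D4:**
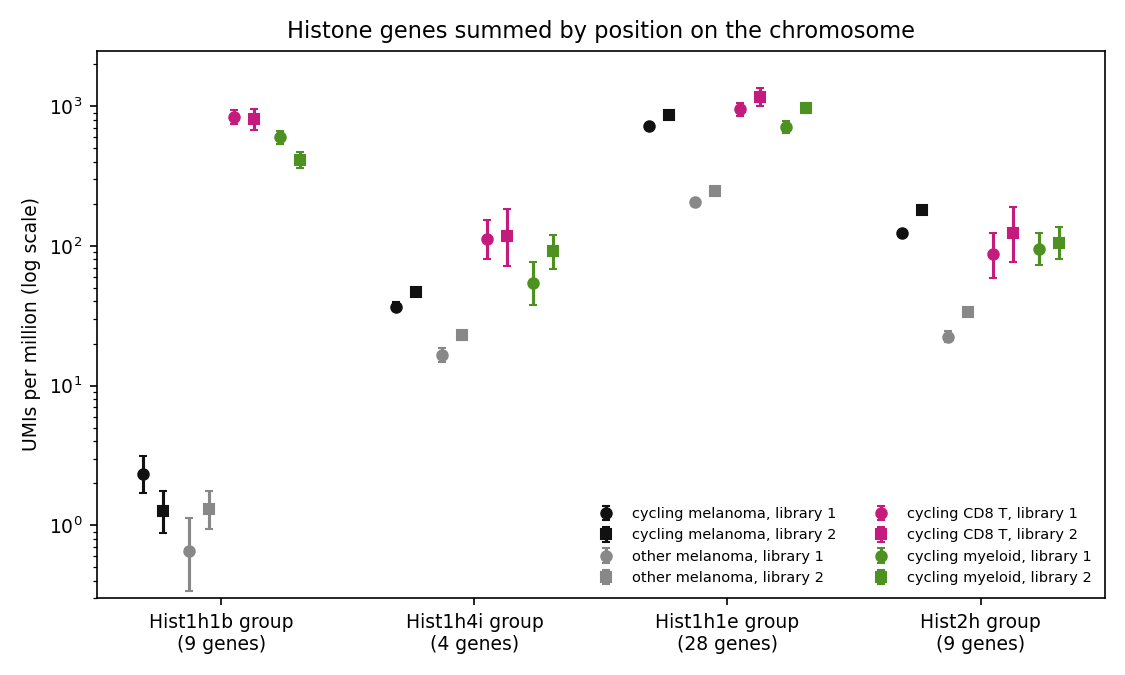
CPM (y axis, log scale) of histone genes summed over 4 blocks of neighbouring genes (x axis), in 4 classes, with circles for library 1, squares for library 2 and exact 95% Poisson intervals as bars. The Hist1h1b group is near 1 in melanoma and between 415 and 842 in cycling CD8 T and myeloid barcodes, whereas the sums of the other blocks lie within 1 order of magnitude of each other between cycling classes.

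Melanoma barcodes were also split by genes of 2 phases that the cycling rule had not used. A list of S phase genes (such as Mcm2, Pcna and Rrm2) and a list of G2/M genes (such as Ccnb1, Plk1 and Cenpe) were each cut at the library's median share. Histone mRNA stood at 548 and 590 CPM in barcodes high for S genes only, 408 and 517 CPM in those high for G2/M genes only, 896 and 1071 CPM in those high for both, and 253 and 301 CPM in those low for both. The ratio of the S to the G2/M class was 1.34 (1.28 to 1.41) and 1.14 (1.10 to 1.19). It was 1.85 and 1.55 for H2A. Of the S class 38.7% and 31.7% of barcodes were cycling by the earlier rule, against 55.5% and 55.5% of the G2/M class. The part of this difference in the ratios was not tested. Barcodes high for both lists had the highest share in each library and were also the deepest, with a median of 22349 and 13557 UMIs, and the part of depth was not tested.

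Of 17 members measured between the S and G2/M classes, 2 were called higher in S (Hist1h2ae and Hist1h2ab) and 1 lower (Hist3h2a), where 0.902% of 9420 genes were higher and 0.881% lower. The members' median log2 ratio was 0.335 and -0.0333. Hist1h2ae stood at 87.6 and 97.7 CPM in the S class and 28.1 and 44.8 in the G2/M class, a ratio of 3.12 and 2.18. Hist1h2ab stood at 8.38 and 8.04 against 3.55 and 3.89 CPM, 2.36 and 2.06. Hist3h2a stood at 7.63 and 7.49 against 15.97 and 16.01 CPM, a ratio of 0.478 and 0.468, and at 18.4 and 15.4 CPM in barcodes low for both lists. Hist1h1e was 1.77 and 1.31 times higher in the S class and Hist1h4d 1.13 and 0.927 times. Keeping barcodes shared between libraries, leaving out high doublet scores or averaging over barcodes each left 1 gene called higher.

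**Figure D5:**
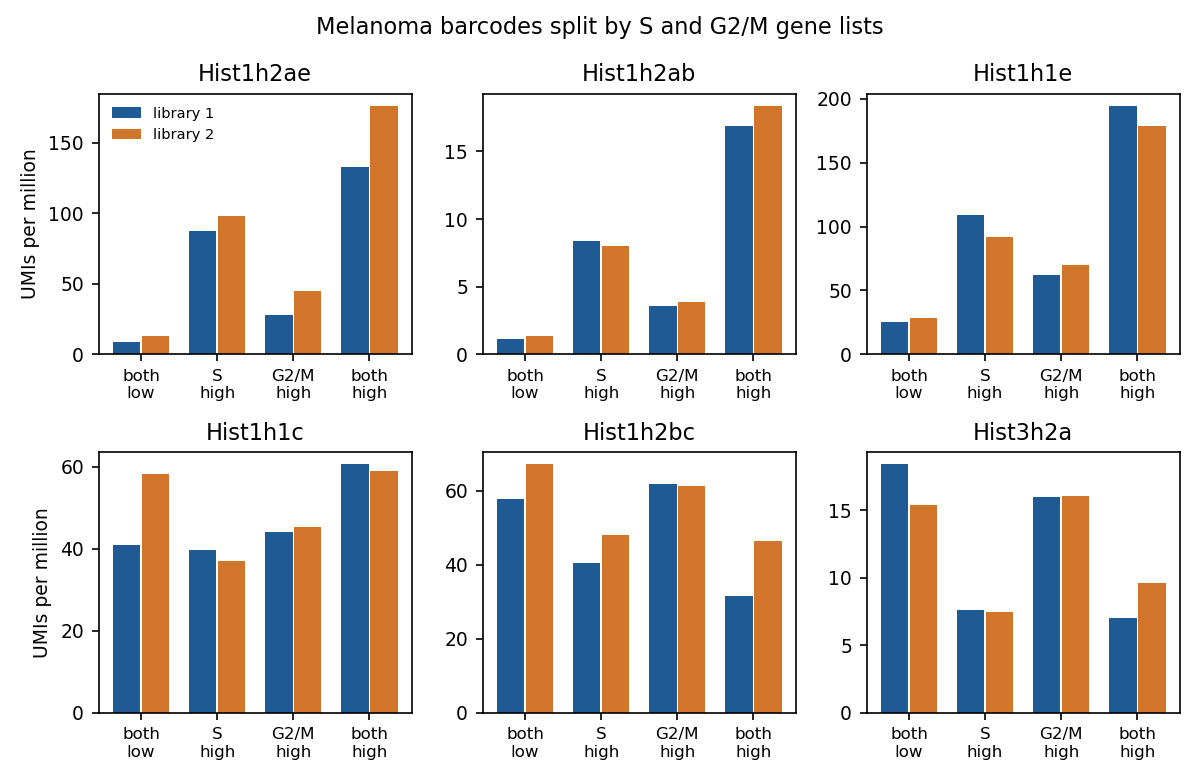
CPM (y axis, a separate scale for each gene, starting at 0) of 6 histone genes in melanoma barcodes low for both lists, high for S genes only, high for G2/M genes only, and high for both (x axis), with library 1 in blue and library 2 in orange and no error bars. Hist1h2ae and Hist1h2ab are higher in the S than in the G2/M class and highest where both lists are high, whereas Hist3h2a is lowest, at 7.04 to 9.60, where S genes are high.

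Other genes of histone supply were read from lists of known function. Between cycling and other melanoma 2.47% of all 10867 genes measured were higher and 0.258% lower by the same rule. Of 11 replacement variants, which are also made outside replication, 10 were measured between cycling and other melanoma and 2 were higher: H2afx, which marks DNA breaks, at 93.5 and 100.2 against 34.2 and 31.6 CPM, and Cenpa, the H3 variant of centromeres, at 150 and 149 against 62.2 and 59.8 CPM. None was lower. The list's median log2 ratio was 0.64 and 0.642, below the 1.72 and 2.05 of the replication-dependent genes. H3f3a, which encodes H3.3, stood at 937.5 and 801 against 965 and 805 CPM. Of 24 genes for histone transcription and 3′ end processing, 21 were measured, 2 were higher (E2f2 and Ccne2) and 0 lower. Slbp, the stem-loop binding protein, had 93.8 and 78.0 against 62.2 and 54.6 CPM, and Npat, the activator of histone genes, 24.8 and 19.0 against 18.0 and 15.4 CPM, neither called. Of 22 histone chaperones 22 were measured, 5 were higher and 0 lower: Asf1b at 3.87 and 3.44 times, Chaf1a, Chaf1b, Tonsl and Mms22l at 2.02 to 2.31 times. These act in placing histones on new DNA. Between the S and G2/M classes 0.902% of all 9420 genes measured were higher and 0.881% lower. Of the 21 transcription and processing genes 5 were higher and 0 lower, but Slbp, Ccne1 and Ccne2 are on the S list that made the classes. The transcription factors E2f1, at 84.9 and 54.9 against 15.8 and 18.7 CPM, and E2f2, at 9.43 and 7.38 against 1.29 and 1.73 CPM, are not.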

How the data were processed

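Droplet 3′ libraries of viable CD45+ cells were made from 2 samples, 1 per genotype, per the labels' protocols. Cell Ranger and mm10 are named in the submitters' processing notes, and the file headers give 3.0.2 as the version of the software. Raw UMI counts, with no normalisation, were deposited for every gene and barcode. Settings for assigning reads, and so for genes with near-identical copies, are not given in the sources used here. The matrix held 49129318 and 73507228 UMIs in library 1 and library 2.

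The barcodes used had 500 UMIs and 200 genes or more, no more than 10% mitochondrial UMIs, and no copy in the other library with more than 10 times as many UMIs. Melanoma barcodes had at least 0.5% of UMIs on melanoma markers and at most 0.05% on white blood cell genes. Immune barcodes had less than 0.3% melanoma and at least 0.1% white blood cell UMIs. CD8 T barcodes needed 0.05% CD8 and 0.1% T UMIs, NK barcodes 0.1% NK UMIs and myeloid barcodes 0.3% myeloid UMIs. Those over the thresholds of 2 lineages were left out. These thresholds were set after the markers' values had been seen. Scrublet (scanpy 1.11.5) marked 1 barcode a library and was used only as an alternative.

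For each class in each library a gene's UMIs were added up and expressed as CPM of the class total, with exact Poisson intervals for levels and exact conditional binomial intervals for ratios, at 95%. A gene was measured when the 2 classes together gave it 50 UMIs or more in each library, and called at a ratio of at least 2, or at most 0.5, in both libraries. A gene could thus be measured through its UMIs in 1 class alone. A count of 0 was set to a floor of 3 counts. The code was tested on simulated counts. Gene positions and transcripts came from GENCODE on GRCm38, the build behind mm10, in which all 67 histone identifiers were found, and promoters from RefSeq (GRCm38.p6). Genes named in the text are the 15 members with the most UMIs, the 6 highest and the 6 lowest ratios in melanoma, members below 1 in both libraries, Hist1h1c, Hist1h2bc and Hist2h2be, and called pathway genes. Further genes were picked with their values in view. The members and lists were chosen with earlier results of these data known. Scripts ran in Python 3.11.15 with pandas 2.3.3, scipy 1.17.1 and numpy 2.4.6.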

Additional observations from a re-analysis of the deposited data

How the results depend on the processing

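Alternatives were other barcode filters, other thresholds, averaging over barcodes and subtraction of free melanoma RNA; those for comparisons of cycling classes and for gene blocks, and the minimum of 3 cycling-gene UMIs, were added after the data were seen. Of these values, 152 stayed and 40 moved. The 24 members higher in cycling melanoma stayed within 1.5 times under every alternative run. With barcodes shared between libraries kept, other melanoma of library 1 held 276 CPM. With at least 2000 UMIs a barcode, CD8 T barcodes held 1415 and 1742 CPM and myeloid barcodes 532 and 808 CPM. Leaving out the 6% highest Scrublet scores gave 1140.0 CPM in cycling melanoma of library 2, and block ratios of 636 (CD8 T) and 484 (myeloid) in library 1. Each of these settings but the depth filter, and averaging over barcodes, left 1 member higher in the S class. Averaging gave 306 and 336 CPM in other melanoma, 712 and 1053 in CD8 T, 396 and 556.5 in myeloid barcodes, 6 members higher than in CD8 T barcodes, and a myeloid block ratio of 178 in library 1. With cycling at 0.1% of UMIs, cycling melanoma held 1023 and 1311 CPM and other melanoma 332 and 414, and the mean log2 ratio of Hist1h2ac turned from -0.0885 to 0.158. At 0.02% these were 738 and 893, and 244 and 298.5 CPM, with 10 members higher than in myeloid, 2 higher than in cycling CD8 T and 1 lower than in NK barcodes, and a myeloid block ratio of 229 in library 2. Requiring 3 UMIs of the cycling genes left 0 members higher than in cycling myeloid barcodes. With 10 UMIs a gene enough, members lower in cycling melanoma were 6 (CD8 T), 5 (myeloid), 7 (cycling CD8 T) and 7 (cycling myeloid), and members higher in cycling barcodes 7 in CD8 T and 15 in myeloid barcodes, since more members were measured. Subtracting melanoma RNA gave 614.5 CPM in myeloid barcodes of library 2 and 1 member higher than in cycling CD8 T barcodes. Apart from the setting of 10 UMIs a gene, the cause of each move was not tested. NK barcodes at 2000 UMIs and cycling CD8 T barcodes at 2000 UMIs, at 0.1% or with 3 UMIs were under 50 in a library and were not run.

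No paired analysis was possible because each genotype has 1 library, which also leaves no replicate to leave out in turn. Depth limits the immune classes most: the floor of 3 counts stands at 63.0 CPM in NK barcodes and 17.7 CPM in cycling CD8 T barcodes of library 2, against 0.108 CPM in cycling melanoma.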
